A study of Homo sapiens with 18 samples.

Results

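The 10 genes described here encode enzymes that modify the bases of ribosomal RNA, and their direct partners, apart from the box C/D and box H/ACA complexes. They are NOP2, NSUN5, ZCCHC4, DIMT1, METTL5, BUD23, EMG1, NAT10, TRMT112 and THUMPD1. They were chosen by gene symbol, and all 10 were found among the 17017 symbols of the deposited table. They were measured in MDA-MB-231, a cell line long established from a triple-negative breast carcinoma, after knockdown of fibrillarin (FBL), the methyltransferase of the box C/D particles that 2'-O-methylate riboses of ribosomal RNA. Cells were transduced with lentivirus that carried a hairpin against FBL or a scramble sequence, selected with puromycin, and treated with cycloheximide just before lysis. SC was taken as the scramble treatment. SH2 and SH3 are the hairpin treatments, and which of the study's hairpins each one is, the labels leave unsaid. In each treatment 3 libraries hold input cytoplasmic RNA (IN) and 3 hold footprints (RPF), the RNA fragments that ribosomes protect from RNase I, which makes 18 libraries. Nothing in the labels says that replicates came from separate cultures, so p-values measure the spread between these libraries, which may be technical.

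Ribosomal RNA carries base modifications that are made by enzymes other than the box C/D and box H/ACA complexes, each acting on 1 or a few sites. On the large subunit, NOP2 and NSUN5 methylate cytosines and ZCCHC4 makes N6-methyladenosine. On the small subunit, DIMT1 dimethylates neighbouring adenosines near the end of the RNA, METTL5 makes N6-methyladenosine, BUD23 methylates a guanosine, EMG1 methylates a pseudouridine and NAT10 acetylates cytidines. TRMT112 is the small partner that METTL5 and BUD23 need for their stability, and THUMPD1 is the adaptor through which NAT10 acetylates transfer RNA.

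RNA of NSUN5 and BUD23 rose in both hairpins, RNA of THUMPD1 fell in both, and RNA of ZCCHC4 fell in SH3 and was not called in SH2. The sequences just before the gene start of these 4 genes are shown because the clearest changes lie in them. All 10 genes matched RefSeq's promoter table (GRCh38.p14), with 2 starts for TRMT112. The 120 bases before the start are given 5′ to 3′ on the gene's strand. Capitals mark every match, on either strand, to the letters CACGTG of an E-box core, to the letters CCGGAA of an ETS site core or to the letters GGGCGG of a GC box.
NSUN5: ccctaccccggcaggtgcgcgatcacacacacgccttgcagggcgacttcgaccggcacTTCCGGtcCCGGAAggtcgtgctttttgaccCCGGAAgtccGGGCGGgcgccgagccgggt
BUD23: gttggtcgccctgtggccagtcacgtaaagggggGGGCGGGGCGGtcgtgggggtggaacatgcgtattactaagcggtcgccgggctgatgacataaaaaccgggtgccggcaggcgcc
THUMPD1: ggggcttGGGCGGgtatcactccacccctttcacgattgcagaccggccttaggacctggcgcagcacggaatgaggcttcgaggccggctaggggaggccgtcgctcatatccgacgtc
ZCCHC4: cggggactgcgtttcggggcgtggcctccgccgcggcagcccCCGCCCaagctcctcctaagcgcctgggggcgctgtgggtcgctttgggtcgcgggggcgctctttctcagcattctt
In GRCh38.p14 these windows are chr7:73308827-73308946 on the minus strand for NSUN5, chr7:73683477-73683596 on the plus strand for BUD23, chr16:20741819-20741938 on the minus strand for THUMPD1 and chr4:25312654-25312773 on the plus strand for ZCCHC4. The NSUN5 window holds 3 matches to CCGGAA. At least 1 match is present in 9.77% of 35116 windows of this length in the table, and 3 or more in 0.305%. Among the 10 genes, NSUN5, TRMT112, NOP2 and EMG1 have this motif, and NAT10 has CACGTG, which 3.9% of all windows hold. GGGCGG is in 7 of the genes, BUD23, THUMPD1 and ZCCHC4 among them, and in 34% of all windows. TRMT112 is counted here through 1 of its 2 starts. The windows of these genes that hold GGGCGG are 65 to 75% GC, against a median of 60% over all windows. Whether GGGCGG is more frequent in these genes than their GC content gives was not tested. The BUD23 window holds 2 overlapping matches to GGGCGG. So NSUN5 and BUD23, which rose together, share only GGGCGG of the motifs searched. A match is a description of letters and not a measured binding site.

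RNA libraries held 23469830 to 27629488 counts, and footprint libraries 1662705 to 6098648, with the smallest in SH3 replicate 1 and the largest in SC replicate 1. FBL RNA stood at 349 to 421 CPM in SC, at 1.26 to 11.2 in SH2 and at 2.95 to 4.15 in SH3, where CPM are counts-per-million on library totals scaled by TMM factors within each kind. FBL footprints stood at 269 to 296, 4.43 to 30.1 and 4.10 to 8.06 CPM. The summed RNA of 5 mesenchymal markers that fit this line (VIM, CD44, CAV1, AXL, MSN) was at 6984 to 8936 CPM in SC, 8148 to 9220 in SH2 and 6307 to 7318 in SH3, so that the hairpins did not overlap. Its members went both ways in SH2, with CD44 higher by 0.68 and MSN by 0.32 on the log2 scale and AXL at -0.77 and CAV1 at -0.60, and CAV1 was at -1.17 in SH3. The summed RNA of 6 luminal markers (ESR1, PGR, CDH1, GATA3, FOXA1, ESRP1) was at 9.27 to 10.5 CPM in SC, 11.2 to 14.2 in SH2 and 9.04 to 9.94 in SH3, with ESR1 at 0 to 1 and PGR at 0 to 2 counts per RNA library. GATA3 was higher in SH2 (0.48, edgeR adjusted p 0.00947), whereas FOXA1 was lower in SH3 (-1.14, edgeR adjusted p 0.00351) and at -0.62 in SH2, where it was not called. The part of these marker differences in the results was not tested. Fewer cells and less RNA per cell cannot be told apart in such bulk samples.

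The comparisons with SC ask which of these genes change after loss of fibrillarin, at the level of RNA, of footprints and of translational efficiency, which is how far footprints move beyond RNA. A gene is called where the Benjamini-Hochberg adjusted p of edgeR's quasi-likelihood test, over all genes tested, is under 0.05. All 10 genes were tested in RNA. In SH2, 4 were called in RNA, NSUN5 and BUD23 higher and DIMT1 and THUMPD1 lower, where 61.4% of 12710 genes were called, 31.1% higher and 30.4% lower. In SH3, 4 were called, NSUN5 and BUD23 higher and ZCCHC4 and THUMPD1 lower, where 53.0% of genes were called, 27.8% higher and 25.2% lower. The members' counts were not tested against these shares. The median log2 RNA change of the 10 was 0.003 in SH2 and 0.012 in SH3, against 0.012 and 0.034 over all genes tested.

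In footprints 9 of the 10 genes passed the low-count filter, and NOP2 did not. In SH2, 5 were called, NSUN5 and BUD23 higher and EMG1, METTL5 and TRMT112 lower, where 44.2% of 10345 genes were called, 21.0% higher and 23.2% lower. In SH3, 4 were called, NSUN5 and BUD23 higher and ZCCHC4 and THUMPD1 lower, where 35.9% were called, 16.9% higher and 19.0% lower. The median log2 footprint change of the 9 was -0.04 in SH2 and -0.03 in SH3, against -0.004 and -0.014 over all genes tested. The SH2 count of 5 was 2 without SC replicate 3, without SH2 replicate 3 or with only the compared groups in the fit, and 3 without SH2 replicate 1 or 2. SH2 and SH3 share their SC libraries, which makes their differences from SC dependent on each other.

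**Figure D1:**
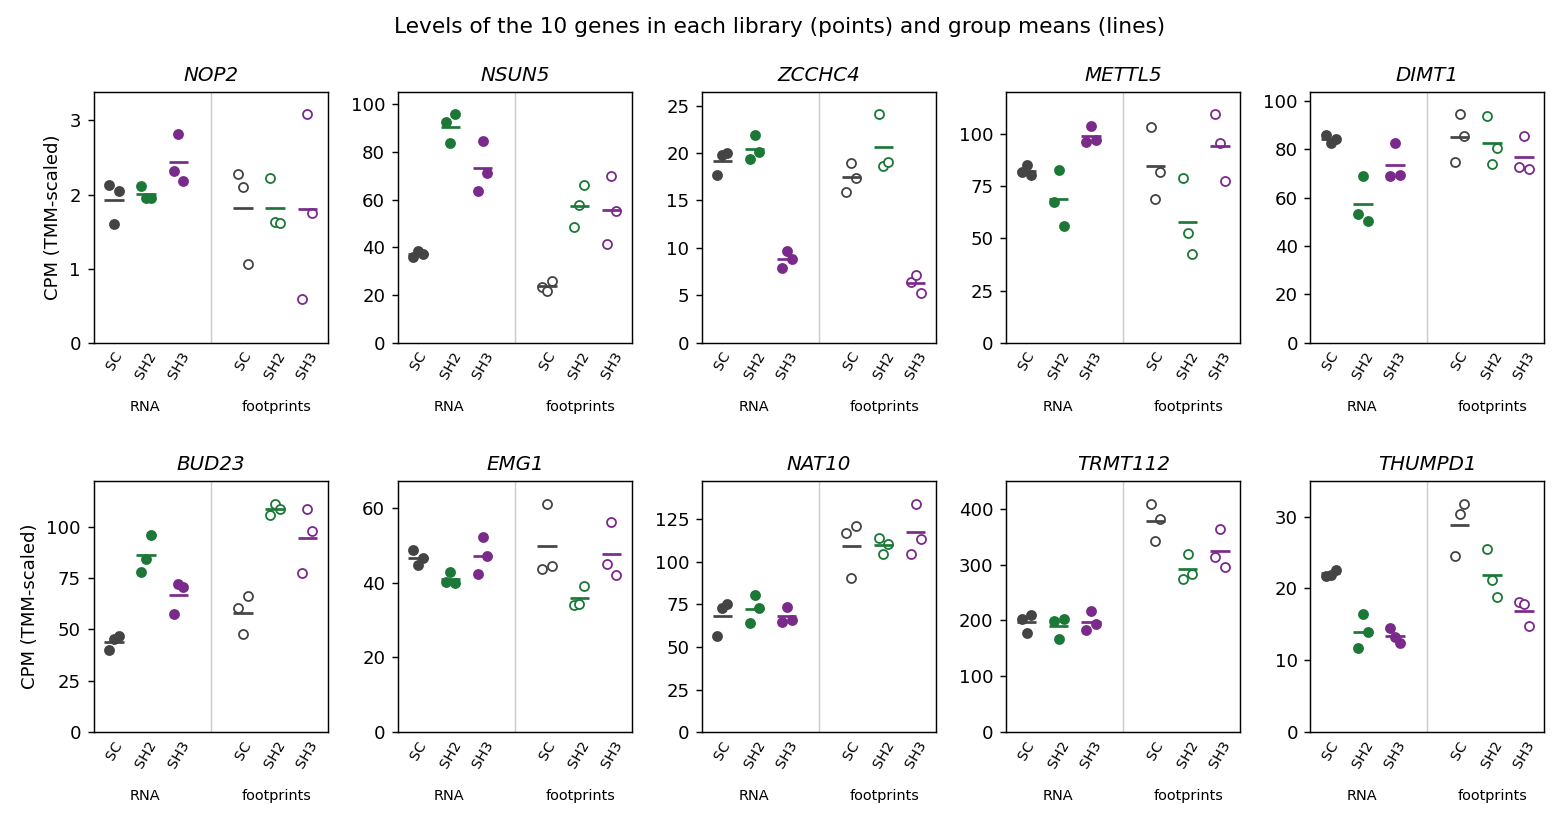
Levels of the 10 genes in TMM-scaled CPM (vertical axes from 0), for RNA (filled points) and footprints (open points), with 1 point per library, lines at the mean of 3 and SC, SH2 and SH3 side by side. The 3 SC points of NSUN5 and of BUD23 lie under all points of both hairpins in both library kinds, and the SH3 points of ZCCHC4 lie under all others, at 7.92 to 9.65 CPM in RNA.

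The large subunit enzymes moved in different ways. NSUN5 RNA stood at 36.0, 38.4 and 37.1 CPM in SC replicates 1, 2 and 3, at 92.4, 83.8 and 95.8 in SH2 and at 63.6, 84.6 and 71.1 in SH3. No hairpin library came near the SC range, and the hairpins overlapped each other through SH3 replicate 2. NSUN5 RNA was 2.44-fold higher in SH2 (log2 difference 1.29, SE 0.11, edgeR adjusted p 4.85e-07) and 1.97-fold higher in SH3 (0.98, SE 0.11, edgeR adjusted p 9.42e-06). Its footprints stood at 23.5, 21.9 and 26.1 CPM in SC, at 48.5, 57.8 and 66.0 in SH2 and at 41.6, 69.8 and 55.4 in SH3. The footprint groups were likewise separate from SC, on 52 to 147 counts per SC library. They were 2.39-fold higher in SH2 (log2 difference 1.26, SE 0.19, edgeR adjusted p 9.55e-05) and 2.34-fold higher in SH3 (1.23, SE 0.20, edgeR adjusted p 0.000221). RefSeq lists 2 pseudogenes of NSUN5, NSUN5P1 and NSUN5P2. How reads shared with such copies were counted is not given in the sources used here, so the NSUN5 level is uncertain to that extent. DIMT1 and THUMPD1 have 1 listed pseudogene each, with the same uncertainty. RefSeq spans also overlap between NSUN5 and POM121B, EMG1 and LPCAT3, DIMT1 and KIF2A, and THUMPD1 and ACSM3, and whether strand was used in counting is likewise not given.

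ZCCHC4 separated the hairpins. Its RNA stood at 17.7, 19.8 and 19.9 CPM in SC, at 19.4, 21.9 and 20.1 in SH2 and at 7.92, 9.65 and 8.85 in SH3. SH2 lay within or just above the SC range, and every SH3 library lay at about the same low level. ZCCHC4 RNA in SH3 was 0.460 of SC (log2 difference -1.12, SE 0.12, edgeR adjusted p 6.40e-06). In SH2 the 95% interval of the log2 difference was -0.15 to 0.34. Footprints of ZCCHC4 stood at 15.9, 19.0 and 17.4 CPM in SC, at 24.1, 18.6 and 19.1 in SH2 and at 6.44, 7.19 and 5.26 in SH3, the last from 11 to 21 counts per library. The footprints followed the RNA, with SH3 apart from the other libraries. In SH3 they were 0.366 of SC (log2 difference -1.45, SE 0.24, edgeR adjusted p 0.000285), and in SH2 the interval was -0.17 to 0.66.

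The test of SH2 against SH3 called ZCCHC4 in both kinds of library. ZCCHC4 was 2.32-fold higher in SH2 than in SH3 in RNA (log2 difference 1.22, SE 0.12, edgeR adjusted p 5.63e-06) and 3.25-fold higher in footprints (1.70, SE 0.24, edgeR adjusted p 0.000133). FBL itself was low in both hairpins, at 1.26 to 11.2 CPM in SH2 RNA and 2.95 to 4.15 CPM in SH3 RNA. The part of FBL loss in the ZCCHC4 difference was not tested.

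NOP2, the large subunit methyltransferase that also acts in early assembly of that subunit, was thinly covered. Its RNA libraries held 39 to 67 counts, or 1.61 to 2.12 CPM in SC, 1.96 to 2.12 in SH2 and 2.18 to 2.81 in SH3. SH3 lay above SC in each library, yet the 95% interval of the log2 difference was -0.11 to 0.79, and that of SH2 was -0.40 to 0.52. Its footprint libraries held 1 to 14 counts and were not tested on their own.

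Of the small subunit adenosine enzymes, DIMT1 fell in SH2 RNA. DIMT1 RNA stood at 85.9, 82.4 and 84.1 CPM in SC, at 53.4, 68.9 and 50.1 in SH2 and at 68.7, 82.5 and 69.2 in SH3. SH2 lay under SC in each library, and 1 library of SH3 reached the SC range. DIMT1 RNA in SH2 was 0.683 of SC (log2 difference -0.55, SE 0.12, edgeR adjusted p 0.00127), and in SH3 the interval was -0.45 to 0.06. Footprints of DIMT1 did not follow this fall in SH2. They ran from 74.8 to 94.4 CPM in SC, while SH2 ran from 73.9 to 93.7 and SH3 from 71.9 to 85.6, with intervals of -0.35 to 0.28 and -0.46 to 0.18, so the 3 groups overlapped. DIMT1 RNA also differed between the hairpins, by a log2 difference of -0.35 in SH2 against SH3 (SE 0.12, edgeR adjusted p 0.0315). That call was lost without SH2 replicate 1 (-0.30), SH2 replicate 3 (-0.25) or SH3 replicate 2 (-0.25).

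METTL5 moved apart between the hairpins. Its RNA stood at 81.6, 85.2 and 80.2 CPM in SC, at 67.7, 83.0 and 55.7 in SH2 and at 96.1, 104 and 97.0 in SH3. SH3 lay above every SC library, and SH2 spread from inside the SC range to well under it. Against SC neither difference was called. It was -0.26 for SH2 (SE 0.12, edgeR adjusted p 0.0788), whereas SH3 gave 0.27 (SE 0.12, edgeR adjusted p 0.0795). With the replicate number as a block, which pairs SC with SH2 libraries, the SH2 difference was called (-0.27, edgeR adjusted p 0.0275). It was also called without SH2 replicate 2 (-0.42, edgeR adjusted p 0.00348). The direct test of SH2 against SH3 called METTL5 RNA, at -0.53 (SE 0.12, edgeR adjusted p 0.00389), so that SH2 was 0.695 of SH3.

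METTL5 footprints stood at 103, 69.1 and 82.0 CPM in SC, at 78.9, 52.4 and 42.7 in SH2 and at 109.5, 95.5 and 77.5 in SH3. The groups overlapped, with SH2 lowest on average. The SH2 footprint difference from SC was -0.57 (SE 0.21, edgeR adjusted p 0.0385), and in SH3 the interval was -0.31 to 0.57. The SH2 call was lost without SC replicate 1 (-0.39), SC replicate 3 (-0.59), SH2 replicate 2 (-0.49) or SH2 replicate 3 (-0.38). It was also lost with only the compared groups in the fit. Between the hairpins the footprint difference was -0.70 (SE 0.21, edgeR adjusted p 0.0266), and this call was lost without SH2 replicate 2 (-0.63), SH2 replicate 3 (-0.52), SH3 replicate 1 (-0.59) or SH3 replicate 2 (-0.68). RefSeq lists 4 pseudogenes of METTL5, and its span overlaps that of SSB, so its counts are uncertain where reads are shared.

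BUD23 rose beside NSUN5. Its RNA stood at 40.0, 45.6 and 46.6 CPM in SC, at 78.2, 84.1 and 96.2 in SH2 and at 57.7, 72.2 and 70.6 in SH3. The 3 groups did not overlap, with SH3 between SC and SH2. BUD23 RNA was 1.95-fold higher in SH2 (log2 difference 0.97, SE 0.12, edgeR adjusted p 7.88e-06) and 1.52-fold higher in SH3 (0.60, SE 0.12, edgeR adjusted p 0.000640). Its footprints stood at 60.4, 47.6 and 66.4 CPM in SC, at 105.9, 111 and 109 in SH2 and at 77.3, 108.5 and 97.8 in SH3. Each hairpin library lay above each SC library, and SH2 and SH3 overlapped. The footprints were 1.85-fold higher in SH2 (log2 difference 0.89, SE 0.16, edgeR adjusted p 0.000338) and 1.62-fold higher in SH3 (0.70, SE 0.16, edgeR adjusted p 0.00319). BUD23 and NSUN5 are close neighbours on their chromosome in RefSeq, with 9 protein-coding genes between them.

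Between the hairpins both genes were called in RNA, NSUN5 at 0.31 (SE 0.11, edgeR adjusted p 0.0354) and BUD23 at 0.37 (SE 0.11, edgeR adjusted p 0.0205), higher in SH2. The NSUN5 call was lost without SH2 replicate 1 (0.30), SH2 replicate 3 (0.28), SH3 replicate 1 (0.24) or SH3 replicate 3 (0.31), and the BUD23 call without SH2 replicate 3 (0.29) or SH3 replicate 1 (0.30). In footprints neither was called, with intervals of -0.37 to 0.43 for NSUN5 and -0.14 to 0.53 for BUD23. Over all 10 genes, SH2 against SH3 called 5 in RNA (NSUN5, BUD23 and ZCCHC4 higher in SH2, DIMT1 and METTL5 lower), where 39.3% of genes were called, 18.9% higher and 20.4% lower. It called 2 of 9 in footprints (ZCCHC4 higher and METTL5 lower), where 23.8% were called, 12.1% higher and 11.6% lower. The RNA count of 5 was 3 without SH2 replicate 1 or SH3 replicate 1 and 2 without SH2 replicate 3. The footprint count of 2 was 1 without any of SH2 replicates 2 and 3 and SH3 replicates 1 and 2.

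EMG1 and NAT10 stayed near the control in RNA. EMG1 RNA ran from 44.7 to 48.7 CPM in SC, while SH2 ran from 39.9 to 42.7 and SH3 from 42.3 to 52.1, with 95% intervals of the log2 difference of -0.40 to 0.02 and -0.20 to 0.23. SH2 lay under SC in each library, by less than the fit could call. EMG1 footprints stood at 43.5, 61.1 and 44.6 CPM in SC, at 34.1, 34.3 and 39.2 in SH2 and at 45.1, 56.2 and 42.1 in SH3. SH2 again lay lowest, and SC replicate 2 stood above the rest. The SH2 footprint difference was -0.45 (SE 0.18, edgeR adjusted p 0.0487), and in SH3 the interval was -0.41 to 0.34. This call, close to the threshold, was lost in the DESeq2 Wald test (adjusted p 0.0653), with RLE scaling (0.0527), with only the compared groups (0.0694) and without SC replicate 2 (-0.30), SC replicate 3 (-0.52), SH2 replicate 1 (-0.41), 2 (-0.41) or 3 (-0.51).

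NAT10 was called in no comparison. Its RNA ran from 56.7 to 74.9 CPM in SC, while SH2 ran from 63.9 to 80.6 and SH3 from 64.7 to 73.1. Its footprints ran from 90.6 to 121 CPM in SC, while SH2 ran from 105 to 114 and SH3 from 104 to 134. The groups overlapped in both measures. The intervals against SC were -0.17 to 0.35 and -0.27 to 0.25 in RNA and -0.31 to 0.31 and -0.22 to 0.41 in footprints, which exclude changes of the size seen for NSUN5 in SH2.

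The partner proteins divided. TRMT112 RNA stood at 203, 178 and 209.5 CPM in SC, at 199, 167 and 202 in SH2 and at 184, 217 and 193 in SH3, and the groups overlapped. The intervals were -0.28 to 0.17 in SH2 and -0.22 to 0.24 in SH3, so the RNA of this partner did not move with that of BUD23. TRMT112 footprints stood at 409, 342 and 382 CPM in SC, at 274, 319 and 282 in SH2 and at 314, 363 and 296 in SH3. SH2 lay under SC in each library, and SH3 overlapped SC. The SH2 footprint difference was -0.37 (SE 0.13, edgeR adjusted p 0.0325), and in SH3 the interval was -0.50 to 0.06. The SH2 call was lost without SC replicate 1 (-0.30), SC replicate 3 (-0.36), SH2 replicate 1 (-0.32) or SH2 replicate 3 (-0.34). It was also lost with only the compared groups in the fit. RefSeq lists 8 pseudogenes of TRMT112, and its span overlaps those of ESRRA and PRDX5.

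THUMPD1 RNA stood at 21.8, 21.9 and 22.6 CPM in SC, at 11.7, 16.4 and 13.9 in SH2 and at 14.6, 13.3 and 12.3 in SH3. Every hairpin library lay under the narrow SC range, and the hairpins overlapped. THUMPD1 RNA was 0.634 of SC in SH2 (log2 difference -0.66, SE 0.13, edgeR adjusted p 0.000629) and 0.606 of SC in SH3 (-0.72, SE 0.13, edgeR adjusted p 0.000437). Its footprints stood at 24.5, 30.3 and 31.8 CPM in SC, at 25.5, 21.2 and 18.8 in SH2 and at 18.1, 17.8 and 14.7 in SH3. SH3 lay under SC throughout, whereas SH2 replicate 1 lay inside the SC range. The footprint difference was -0.40 in SH2 (SE 0.19, edgeR adjusted p 0.0941), not called with all libraries and called without SC replicate 1 (-0.51), and -0.77 in SH3 (SE 0.20, edgeR adjusted p 0.00686). THUMPD1 fell while the RNA of NAT10, the enzyme it serves, was not called.

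**Figure D2:**
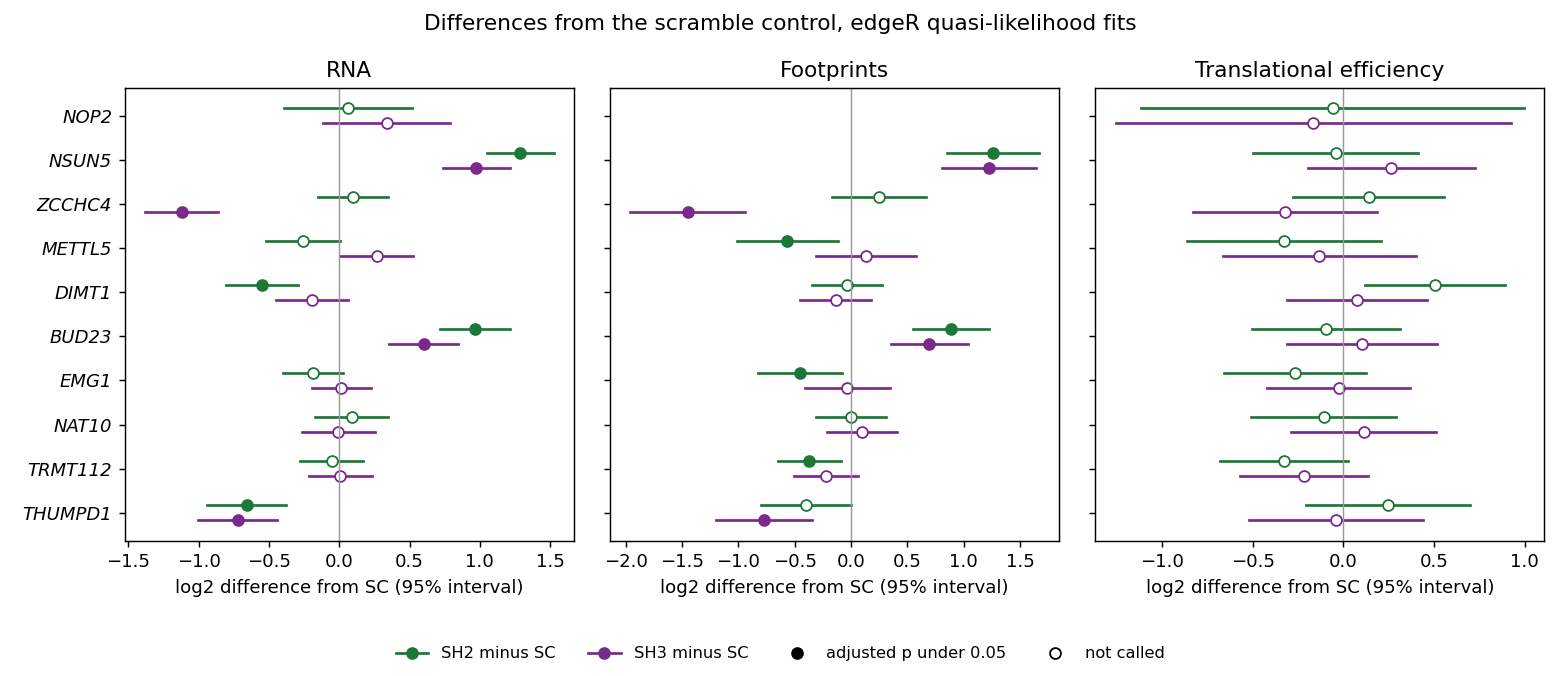
Log2 differences of SH2 and SH3 from SC (horizontal axes) with 95% intervals for the 10 genes, in RNA, footprints and translational efficiency, with filled points where the adjusted p is under 0.05. NSUN5 and BUD23 lie to the right in RNA and footprints, ZCCHC4 lies to the left in SH3, at -1.12 in RNA and -1.45 in footprints, and no point is filled in translational efficiency.

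Whether the ribosome load per RNA changed was asked in 1 fit over all 18 libraries. In translational efficiency, edgeR called 0 of 10 genes in SH2, 0 in SH3 and 0 between the hairpins, where 3.90%, 0.686% and 0.0160% of 12531 genes were called. The DESeq2 Wald test also called 0 in each. At an unadjusted p under 0.05 there was 1 gene in SH2, 0 in SH3 and 1 between the hairpins, in both cases DIMT1. Without NOP2, the 95% intervals of the 9 genes lay within -0.86 to 0.89 on the log2 scale in SH2 and within -0.83 to 0.73 in SH3. The median of the 10 genes was -0.08 in SH2 and -0.03 in SH3, against -0.02 and -0.04 over all genes tested.

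DIMT1 had the highest efficiency difference of the 9 genes in SH2. Its footprint to RNA ratio, from CPM of the same replicate number, stood at 0.871, 1.15 and 1.02 in SC, at 1.75, 1.07 and 1.60 in SH2 and at 1.06, 1.04 and 1.04 in SH3. These single ratios rest on the replicate numbers, which the data do not bear out as pairs of RNA and footprints in SC and SH2. The mean log2 ratio, which does not depend on that pairing, was 0.01 in SC, 0.53 in SH2 and 0.06 in SH3. The efficiency difference was 0.51 in SH2 (SE 0.18, edgeR adjusted p 0.137) and was called without SH2 replicate 2 (0.72, edgeR adjusted p 0.0395). That setting leaves out the RNA and the footprint library numbered 2, which the data do not bear out as a pair. They held the highest SH2 RNA (68.9 CPM) and the lowest SH2 footprints (73.9 CPM) of DIMT1. For NSUN5 the mean log2 ratio was -0.64 in SC, -0.67 in SH2 and -0.42 in SH3, and BUD23 had 0.39, 0.34 and 0.49. Their footprints and RNA both rose, with efficiency intervals of -0.50 to 0.41 and -0.20 to 0.73 for NSUN5 and of -0.50 to 0.31 and -0.31 to 0.52 for BUD23.

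In the control cells the genes differed in this ratio. Among 10345 genes with enough counts in both kinds of library, TRMT112 stood at the 91.6 percentile of the mean log2 ratio of SC, with 0.94, and NAT10 at the 85 percentile, with 0.68. BUD23 followed at 74.4 and THUMPD1 at 73.9. EMG1 (61.1), METTL5 (58.8), DIMT1 (58.1) and ZCCHC4 (52.2) lay near the middle. NSUN5 was lowest at the 33 percentile, with -0.64. Ratios of genes depend on which part of the transcript was counted, which is not given in the sources used here.

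**Figure D3:**
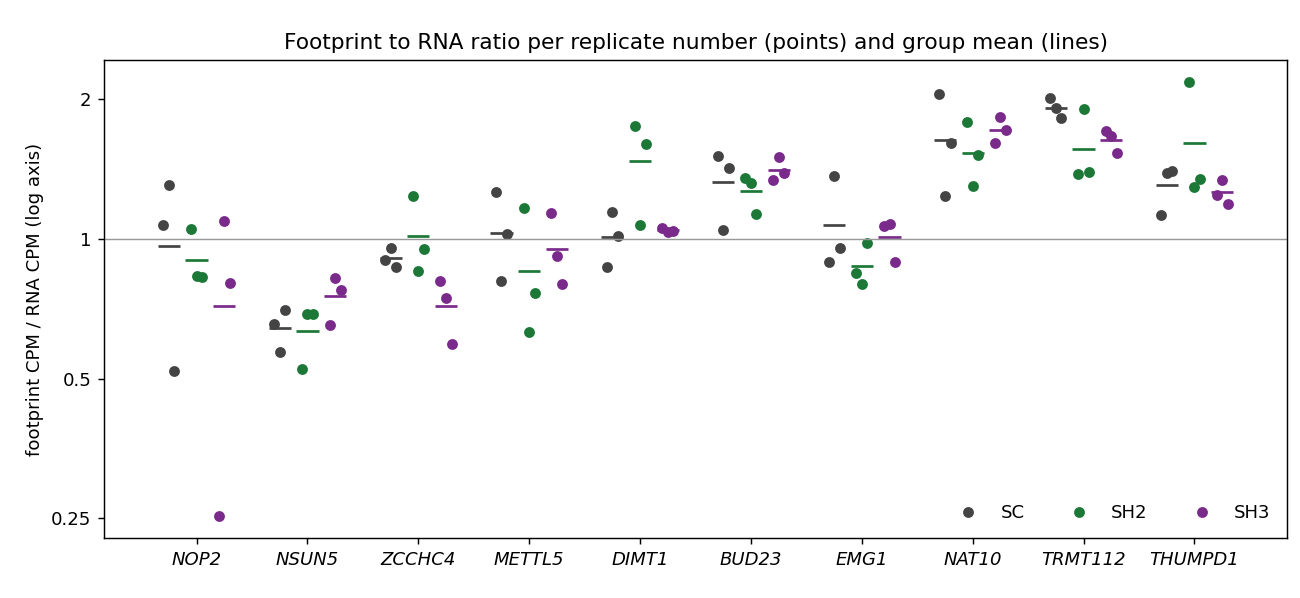
Footprint CPM divided by RNA CPM of the same replicate number (log axis) for the 10 genes, with 1 point per replicate and lines at the mean of 3. TRMT112 and NAT10 lie highest in SC, NSUN5 stays under 1 in every treatment, and the DIMT1 mean lies higher in SH2 than in SC. Points of SC and SH2 would move if RNA and footprints were paired otherwise.

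Genes with the RNA profile most like those of NSUN5, BUD23 and THUMPD1 were sought among 12709 other genes, by the root mean square difference of centred log2 CPM over the 9 RNA libraries. Nearest to NSUN5 were ESRRA, an orphan nuclear receptor (difference 0.054), and ZNF408 (0.071). Nearest to BUD23 were ATG16L1, an autophagy protein (0.039), and ARHGEF2, a microtubule-bound exchange factor (0.055). Nearest to THUMPD1 were ZFP30 (0.077) and DESI2 (0.086). Between the members, NSUN5 and BUD23 differed by 0.19 and NSUN5 and THUMPD1, which moved oppositely, by 0.89.

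Related genes were counted in lists by function. Each count below stands against 61.4% and 53.0% of all genes called in RNA in SH2 and SH3, 44.2% and 35.9% in footprints and 3.90% and 0.686% in translational efficiency. By direction, 31.1% and 27.8% of all genes were called higher in RNA, and 30.4% and 25.2% lower. The list counts were not tested against these shares. Of 3 further enzymes acting on cytosolic rRNA, 2 were called in RNA in each hairpin, all higher (median log2 change 0.40 in SH2 and 0.31 in SH3). FTSJ3, a methyltransferase of the large subunit precursor, rose in RNA by 0.52 in SH2 and 0.43 in SH3 and in footprints by 0.49 and 0.54. TSR3, which completes the hypermodified nucleotide that EMG1 methylates, went the other way in footprints, by -0.73 in SH2 and -0.64 in SH3. Its RNA was higher by 0.40 in SH2 (edgeR adjusted p 0.0130), and its translational efficiency was lower by -1.15 there (SE 0.21, edgeR adjusted p 0.00402). In SH3 that efficiency difference was -0.65 (SE 0.22, edgeR adjusted p 0.178). These TSR3 efficiency values were singled out after they were seen.

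Of 10 genes of mitochondrial rRNA modification, 3 were higher and 2 lower in SH2 RNA, and 3 higher and 1 lower in SH3 RNA, with medians of 0.21 and 0.31. NSUN4, the mitochondrial relative of NSUN5, rose by 0.30 and 0.46, and TRMT2B fell by 0.63 and 0.62. Of 4 other NSUN genes, 1 rose and 1 fell in each hairpin, and NSUN7 fell in both, by 1.42 and 0.65. NSUN7 was thinly covered, at 60 to 90 counts per RNA library in SC, 23 to 37 in SH2 and 34 to 65 in SH3. Its SH3 call was close to the threshold (edgeR adjusted p 0.0464), and its footprints were not tested on their own. Of 5 other partners of TRMT112, 3 were called in SH2 and 1 in SH3, all lower, and ALKBH8, a transfer RNA enzyme, fell in both, by 0.40 and 0.53. The 3 of 5 lower in SH2 stand against 30.4% of all genes called lower and 61.4% called in either direction.

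Of 6 other N6-adenosine methyltransferases and partners, 5 were called in SH2 RNA and 3 in SH3, all lower (medians -0.54 and -0.26). Of all genes, 30.4% and 25.2% were called lower. METTL3, the catalytic subunit of the mRNA enzyme, fell by 0.76 and 0.43, PCIF1, which acts at the cap, by 0.60 and 0.58, and METTL16 by 0.52 and 0.28. METTL3 also fell in footprints, by 1.23 and 0.49, where PCIF1 and METTL16 were called in neither hairpin. Of 7 core proteins of the guided box C/D and H/ACA particles, 1 rose and 4 fell in SH2 RNA, and 2 rose and 2 fell in SH3. DKC1, the pseudouridine synthase, rose in RNA by 0.43 and 0.54, whereas RNA of its partners NHP2 and NOP10 fell, by 0.52 and 0.29 and by 0.58 and 0.34. In footprints DKC1 was called in neither hairpin, NHP2 was called in SH2 alone (-0.66) and NOP10 in SH3 alone (-0.45). NOP56, a box C/D core protein, rose in footprints by 1.00 and 1.30 and in translational efficiency by 0.77 in SH2 (SE 0.17, edgeR adjusted p 0.0147) and by 0.93 for SH3 (SE 0.17, edgeR adjusted p 0.0122).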

How the data were processed

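Cytoplasmic RNA and ribosome footprints were sequenced in 3 treatments with 3 replicates each. Raw whole-number counts per gene and library were deposited by the authors in 1 table of 17017 symbols. Per the submitters' processing notes, Bowtie 1.2.2 and DESeq2 were used, with no role given. The counting tool, annotation, build and treatment of shared reads are not given in the sources used here. Per the file headers, the table also holds the authors' DESeq2-normalized signal, log2 fold changes and p-values, which were not used for tests. The deposited measure named RD held the same values for both hairpins in all 3 of its columns and was left out.

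The deposited counts were fitted with edgeR 4.0.16 (R 4.3.3): filterByExpr, TMM scaling, glmQLFit and glmQLFTest, two-sided, with Benjamini-Hochberg adjustment over all genes tested. RNA and footprints had 1 fit of 9 libraries each, and translational efficiency an interaction contrast over 18. SE is the absolute log2 difference divided by the square root of F, and intervals are 95%. Fits were tested on simulated data. CPM use TMM-scaled library sizes. Alternatives were DESeq2 1.42.0, other scalings, no filter, only the compared groups, a replicate block and leaving out each replicate. All 10 genes were named. For other lists, the genes named were those that both hairpins called alike, at most 4 a list by adjusted p, as were the 2 nearest RNA profiles of each member called in both. A difference is printed as a value where its unadjusted p is under 0.05 or any setting called it, and otherwise as its interval. The genes and lists were chosen with earlier results of these data known.

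Deviations from the group means correlated across genes between same-numbered SC and SH2 libraries by 0.369 to 0.409 in RNA and 0.252 to 0.300 in footprints, so the numbers pair these groups. For SH3 with SC they did so only in part. In RNA the correlations were 0.245 and 0.357 for numbers 1 and 3 and -0.158 for number 2. In footprints they were 0.0171, -0.0587 and 0.262 for numbers 1, 2 and 3. The numbers did not pair RNA with footprints in SC (-0.495 to 0.267) or in SH2 (-0.311 to 0.508). There, RNA of replicate 1 correlated with footprints of replicate 2 (0.583 in SC, 0.57 in SH2) and RNA of replicate 2 with footprints of replicate 1 (0.465 and 0.502), so ratios by number rest on a numbering that the data go against. The main translational efficiency test uses no such pairing. Leaving out a replicate there drops the RNA and footprint libraries of that number together. No replicates agreed within counting noise (chi-square per degree of freedom 3.38 to 56.3).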

Additional observations from a re-analysis of the deposited data

Results flagged for a closer look

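The effects of the hairpins differed by the direct test of SH2 against SH3 for 5 of 10 genes in RNA and 2 of 9 in footprints. Of all genes tested, 39.3% were called in RNA and 23.8% in footprints. The calls of DIMT1, NSUN5 and BUD23 in RNA and of METTL5 in footprints were lost under some settings. In RNA the log2 difference, SH2 minus SH3, was 1.22 for ZCCHC4 (edgeR adjusted p 5.63e-06), -0.53 for METTL5 (0.00389), 0.37 for BUD23 (0.0205), -0.35 for DIMT1 (0.0315) and 0.31 for NSUN5 (0.0354). In footprints it was 1.70 for ZCCHC4 (0.000133) and -0.70 for METTL5 (0.0266). ZCCHC4 and METTL5 lay on opposite sides of SC in the hairpins by their mean RNA levels. Of their RNA differences from SC, only that of ZCCHC4 in SH3 was called in the main fit. NSUN5 and BUD23 rose in both hairpins, by more in SH2 RNA.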

How the results depend on the processing

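Of 24 called differences of single genes, 17 kept their direction and call under every setting run, among them all called RNA differences from SC and every NSUN5, BUD23, ZCCHC4 and THUMPD1 call against SC. The other 7 were EMG1, METTL5 and TRMT112 footprints in SH2, METTL5 footprints between the hairpins, and DIMT1, NSUN5 and BUD23 RNA between the hairpins. They kept their direction. A further 57 differences, given by interval alone, were called under no setting, and 28 of them changed sign under some setting.

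With only the compared groups in the fit, 2 of 9 genes were called in SH2 footprints in place of 5. Leaving out 1 replicate gave 2 to 4 genes there, 2 to 5 in RNA between the hairpins, 1 to 2 in footprints between the hairpins and 0 to 1 in SH2 translational efficiency. The counts with a replicate block were 5 in RNA for each hairpin, in which METTL5 was added, and 5 and 4 in footprints for SH2 and SH3. The block spans all 9 libraries of a kind, SH3 among them, although the data bear out every number as a pair only for SC with SH2, and SH3 in part. It changed no other call of the 10 genes against SC. With the block and only SC and SH2 in the fit, a setting chosen after seeing the data, METTL5 RNA in SH2 was also called (-0.29, edgeR adjusted p 0.0182). With a block by lysate, which takes RNA and footprints of a number as a pair, the efficiency count was 0 in each comparison. The data do not bear out these pairs in SC and SH2, so this count cannot show what true pairs would give. The SH3 RNA difference of METTL5 was called with the block (0.27, edgeR adjusted p 0.0345), with plain library totals (0.35, edgeR adjusted p 0.0271) and with only the compared groups (0.23, edgeR adjusted p 0.0240). In the DESeq2 Wald test, 1 gene in place of 2 was called among the other rRNA enzymes in SH3 RNA and among the N6-adenosine enzymes in SH2 footprints. The cause was not tested.

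Over all genes, the counts called in translational efficiency were 489 in SH2 (110 to 828 over the settings), 86 in SH3 (10 to 289) and 2 between the hairpins (0 to 160). NOP2 was the least covered of these genes in both kinds of library, at 39 to 67 counts per RNA library and 1 to 14 per footprint library. Every other member held 198 or more counts in each RNA library. Why NOP2 counts were so low was not tested.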

Other observations

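NSUN5 and BUD23 have 9 protein-coding genes between them in RefSeq's order, a region examined after their values were seen. Of these, 6 were tested in RNA. In SH2, 3 were higher (TBL2, VPS37D and DNAJC30) and 1 lower (BAZ1B), where 31.1% of all genes were higher and 30.4% lower. In SH3, 3 were higher (TBL2, VPS37D and MLXIPL), where 27.8% of all genes were higher. In either direction, the counts of 4 and 3 of 6 stand near the 61.4% and 53.0% of all genes called. They were not tested against these shares. VPS37D changed by 0.93 and 0.87 on the log2 scale and TBL2 by 0.64 and 0.41. BAZ1B, a chromatin remodelling subunit, stood at -0.39 (edgeR adjusted p 0.00681) in SH2 and at 0.25 (edgeR adjusted p 0.0668) in SH3, and its footprints at -0.40 (edgeR adjusted p 0.0787) and 0.56 (0.0221). BCL7B RNA stood at 0.08 and -0.18, neither called, whereas its footprints were lower in both hairpins, at -0.62 (edgeR adjusted p 0.0215) and -0.98 (0.00288). DNAJC30, the direct neighbour of BUD23, changed by 0.46 in SH2 RNA (edgeR adjusted p 0.0121) and by 1.29 in SH2 footprints (edgeR adjusted p 0.00176), and its SH3 footprints stood at 0.75 (edgeR adjusted p 0.0686). TBL2 footprints stood at 0.47 in SH2 (edgeR adjusted p 0.0228) and at 0.11 in SH3 (edgeR adjusted p 0.63).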
